A study of Homo sapiens with 6 samples.

Results

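Expression of the TEAD transcription factors and of genes used as readouts of their coactivators YAP and TAZ was examined in MCF-10A cells with ectopic CRB3. The members are the genes TEAD1, TEAD2, TEAD4, CCN1, CCN2, ANKRD1, AMOTL2, AXL, CRIM1 and CCDC80. Every probe set annotated to one of these symbols alone was taken, which gave 22 probe sets of 10 genes, out of 54613 probe sets and 19775 named genes on the arrays. The line, MCF-10A, comes from human breast epithelium and is immortalized but not transformed. The CRB3-expressing cells (3 arrays) were infected with a retrovirus that carries CRB3, the small transmembrane Crumbs protein of epithelial polarity, and the vector control cells (3 arrays) with the empty pNG retrovirus. Both were selected with puromycin, grown in the usual medium of the line and collected as proliferating monolayers at 70% confluence. Each group has 3 RNA samples. Separate infections are not stated for them, so the p-values reflect the spread among these samples, which may be technical.

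TEAD proteins bind DNA through their TEA domain, while YAP and TAZ (the product of WWTR1) have no DNA-binding domain and reach target genes through TEADs. The kinases of the Hippo pathway phosphorylate YAP and TAZ and thereby keep them out of the nucleus. In epithelial cells the pathway is known to respond to cell contact, polarity and tension, and CCN1, CCN2, ANKRD1 and AMOTL2 are among the transcripts most often measured as its output.

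CRB3 itself had log2 values of 12.16, 12.00 and 12.19 on the CRB3-expressing arrays, against 7.90, 7.59 and 7.85 on the vector control arrays, as the labels say. The epithelial keratin KRT5 and the adhesion protein EPCAM had mean log2 values of 13.58 and 12.21 in CRB3-expressing cells, against 13.62 and 11.83 in vector control cells. Among 4 measured leukocyte and endothelial markers, PTPRC and CDH5 had means of 4.19 and 4.15 in CRB3-expressing cells, against 4.16 and 4.16 in vector control cells. CD3E had 5.22 in CRB3-expressing cells, against 5.10 in vector control cells. PECAM1 had 6.55 in CRB3-expressing cells, against 6.61 in vector control cells, which is above the array medians of 5.84 to 5.88. None of these 4 was called. Of 5 measured mammary epithelial markers 2 were higher in CRB3-expressing cells and 0 lower. These were the basal keratin KRT14, with means of 10.89 in CRB3-expressing cells, against 9.06 in vector control cells (log2 fold change 1.83, limma adjusted p = 5.93e-06), and the adherens junction cadherin CDH1, with 11.96 in CRB3-expressing cells, against 10.86 in vector control cells (1.10, limma adjusted p = 2.17e-05). Of 6 fibroblast markers 1 was lower in CRB3-expressing cells and 0 were higher. This was DCN, with means of 6.93 in CRB3-expressing cells, against 7.68 in vector control cells (log2 fold change -0.76). The other 5 had log2 fold changes from -0.098 (COL1A2) to 0.098 (LUM). COL1A1, the brightest of the 6, had 8.02 in CRB3-expressing cells, against 8.01 in vector control cells. Summed linear signals of the 6, DCN included, were 501 to 529 on the CRB3-expressing arrays and 589 to 612 on the vector control arrays. The lower sum is thus not a shift shared by these markers, and their part in the results below was not tested. These are bulk RNA values, in which fewer cells of a type and less RNA per cell cannot be told apart.

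The upstream sequences of 4 members are shown because they span the range of responses described below: CCDC80 and AMOTL2 were higher in CRB3-expressing cells, ANKRD1 did not pass the test and CCN2 did not differ beyond its spread. Each run is the 250 bases before an annotated start site, from the RefSeq promoter table (GRCh38.p14), in the direction of the gene, and capitals mark matches to the TEAD core motif GGAATG or its reverse complement CATTCC. All 4 genes lie on the minus strand, at chr3:112641144-112641393 (CCDC80), chr3:134374448-134374697 (AMOTL2, its second start site in the table), chr10:90921088-90921337 (ANKRD1) and chr6:131951373-131951622 (CCN2).
CCDC80: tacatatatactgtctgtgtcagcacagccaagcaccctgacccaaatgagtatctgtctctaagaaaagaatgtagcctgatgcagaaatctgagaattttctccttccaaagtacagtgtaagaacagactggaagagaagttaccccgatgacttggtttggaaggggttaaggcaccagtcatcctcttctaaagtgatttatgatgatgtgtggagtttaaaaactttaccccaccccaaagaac
AMOTL2: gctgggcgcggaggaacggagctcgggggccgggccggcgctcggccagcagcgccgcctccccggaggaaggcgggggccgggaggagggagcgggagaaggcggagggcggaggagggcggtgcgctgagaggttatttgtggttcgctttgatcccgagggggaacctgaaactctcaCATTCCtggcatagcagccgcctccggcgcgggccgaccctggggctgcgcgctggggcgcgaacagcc
ANKRD1: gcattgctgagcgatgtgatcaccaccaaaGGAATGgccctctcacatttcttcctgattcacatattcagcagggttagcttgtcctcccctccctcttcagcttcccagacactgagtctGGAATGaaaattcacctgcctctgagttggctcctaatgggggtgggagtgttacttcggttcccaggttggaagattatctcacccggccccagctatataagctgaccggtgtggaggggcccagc
CCN2: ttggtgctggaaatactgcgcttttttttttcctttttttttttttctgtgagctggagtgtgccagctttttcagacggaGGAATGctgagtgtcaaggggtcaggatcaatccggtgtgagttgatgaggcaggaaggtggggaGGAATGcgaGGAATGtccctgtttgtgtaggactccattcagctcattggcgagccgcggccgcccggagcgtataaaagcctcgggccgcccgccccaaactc

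The CCN2 sequence holds 3 matches, which begin 169, 104 and 95 bases before the start site. ANKRD1 holds 2, at 220 and 128 bases, and AMOTL2 holds 1, at 69 bases on the reverse strand, while CCDC80 holds 0. The window of the first AMOTL2 start site, which is not printed, also holds 0. Of 35116 such windows in the table, 11.9% hold at least 1 match and 0.94% hold 2 or more. The promoter table has windows for 6 of the 10 members, 9 windows in all, and 4 of these hold a match, the fourth being the second AXL start site (chr19:41226505-41226754, plus strand, 212 bases upstream). The motif of AP-1, a factor that is often found beside TEADs on DNA, was searched as TGANTCA, which reads the same on both strands. It was found in 1 of the 9 windows, that of ANKRD1 (195 bases upstream), and in 6.57% of all windows, and it overlaps neither of the TEAD matches there. A match is a string of letters and not a measured site, and enhancers farther away were not searched. The window with 3 matches belongs to CCN2, with a log2 fold change of -0.033. One with 0 belongs to CCDC80, whose brightest probe set had 2.42 and whose next had 0.99. TEAD1, TEAD4, CCN1 and CRIM1 have no window, although CCN1 and CRIM1 were higher in CRB3-expressing cells. A relation between matches and response was not tested.

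**Figure D1:**
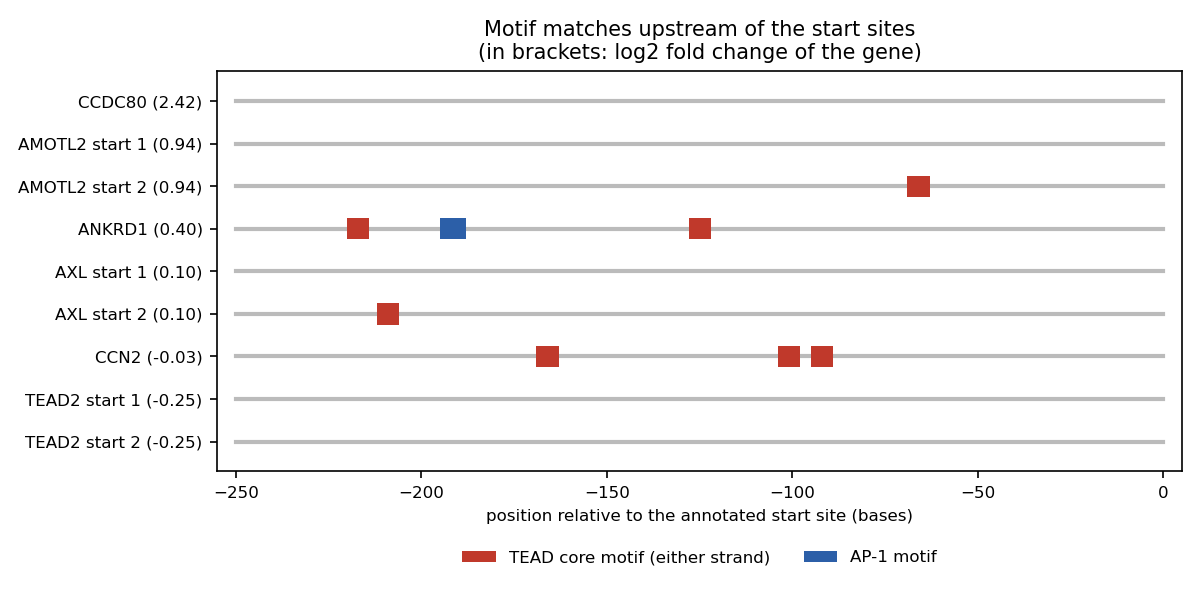
Matches to the TEAD core motif (red) and to the AP-1 motif (blue) in the 9 windows of the 6 members with a promoter sequence; the x axis is the position in bases relative to the annotated start site, each grey line is a window, and the windows run down the page in order of the gene's log2 fold change, given in brackets. CCN2, near the bottom at -0.033, has 3 matches, and CCDC80, at the top at 2.42, has 0. TEAD1, TEAD4, CCN1 and CRIM1 have no window and are not shown.

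In CRB3-expressing cells, 4 of the 7 target genes rose: CCDC80 5.36-fold, AMOTL2 1.92-fold, CCN1 1.89-fold and CRIM1 1.57-fold. No target gene fell, with 0 of 7 lower also at an unadjusted p under 0.05 from limma, and AXL, CCN2 and ANKRD1 were not called. Of the 3 TEAD genes 0 were called in either direction. A gene was called at the thresholds of the study's methods, an adjusted p under 0.05 from limma (Benjamini-Hochberg over all 54613 probe sets) and a fold change above 1.5, judged by the brightest of its probe sets (mean of the 6 arrays). At these thresholds, 1.43% of all 19775 genes were higher and 0.465% were lower, against 4 and 0 of the 10 members. These shares are over genes of every level, dim ones included. Apart from ANKRD1 (percentile 12.9), the members lay between percentile 60.1 (CCDC80) and 90.6 (TEAD1) of mean level. A share among genes of like level was not computed. The median log2 fold change was 0.40 over the 10 members, 0.65 over the 7 targets and 0.0066 over all genes. Over probe sets, 8 of the members' 22 were higher and 0 lower, against 0.948% and 0.363% of all probe sets. The members were chosen with earlier results of these data known, so these counts and medians are not a test of the pathway. The standard deviation of a member's probe set within a group lay between 0.012 and 0.25 on the log2 scale. Values are log2 values from the Robust Multichip Average method (RMA), which the authors deposited, and 3 arrays per group set their precision.

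**Figure D2:**
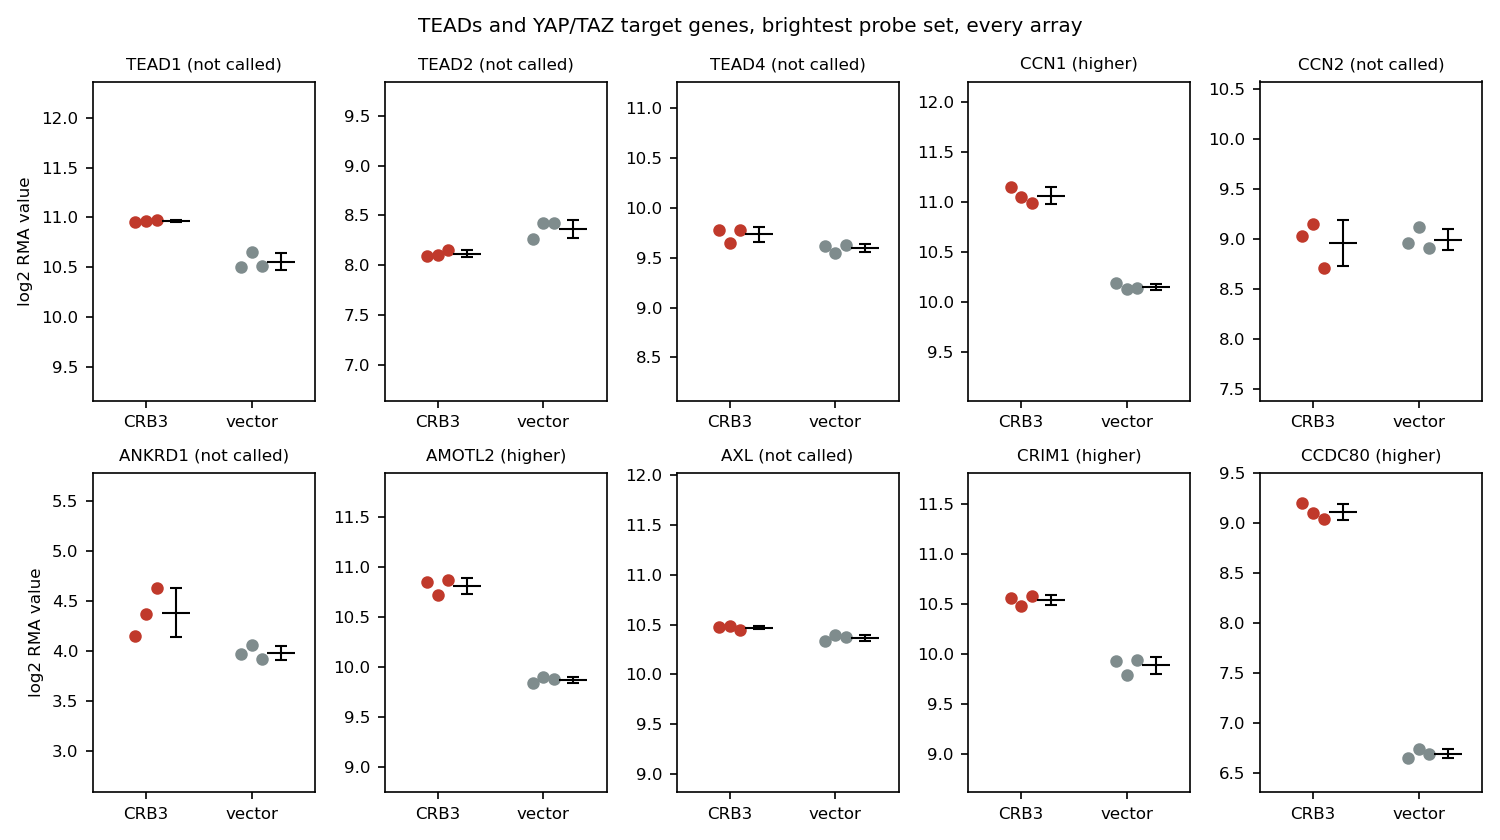
Log2 RMA value (y axis, of equal span in every panel) of the brightest probe set of each of the 10 genes on the 3 CRB3-expressing arrays (red, left) and the 3 vector control arrays (grey, right); each point is an array, with the mean and its SD in black (n = 3). The groups lie far apart for CCDC80 (means 9.11 in CRB3-expressing cells, against 6.69 in vector control cells), apart for CCN1, AMOTL2 and CRIM1, and on top of each other for CCN2 (means 8.96 in CRB3-expressing cells, against 9.00 in vector control cells).

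Among the secreted targets, CCDC80, a protein of the extracellular matrix, had the largest change of the 10 genes. Its brightest probe set read 9.20, 9.10 and 9.04 in CRB3-expressing cells, against 6.65, 6.74 and 6.69 in vector control cells. All 3 CRB3-expressing arrays thus lay more than 2.3 log2 units above each vector control array (log2 fold change 2.42, SE 0.067, limma adjusted p = 3.37e-07). The second read 7.84, 7.97 and 7.85 in CRB3-expressing cells, against 6.86, 6.78 and 7.04 in vector control cells, and the groups again did not overlap. On the log2 scale it rose by 0.99 (SE 0.082). The dimmest rose by 0.76 (SE 0.12), with 5.23, 5.66 and 5.33 in CRB3-expressing cells, against 4.75, 4.72 and 4.47 in vector control cells. The 3 probe sets therefore share a direction and differ in size. The first 2 differed in their change by 1.43 on the log2 scale, and the difference between them did not overlap between groups, at 1.13 to 1.36 on the CRB3-expressing arrays and -0.355 to -0.048 on the vector control arrays (exact permutation test, two-sided, p = 0.1, the smallest that 3 against 3 arrays can give). The fold change of CCDC80 is thus 5.36 or 1.99 depending on which of its 2 brighter probe sets is read.

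CCN1, the matricellular protein once called CYR61, is a standard early transcript of YAP and TAZ activity. It read 11.15, 11.05 and 10.99 in CRB3-expressing cells, against 10.19, 10.13 and 10.14 in vector control cells, with no overlap. The log2 fold change was 0.91 (SE 0.066, limma adjusted p = 9.28e-05). The dimmer probe set read 10.58, 10.57 and 10.75 in CRB3-expressing cells and 10.10, 9.60 and 9.89 in vector control cells, a log2 fold change of 0.77 (SE 0.12, limma adjusted p = 0.00789). CCN1 was therefore higher in both of its probe sets, the second with a wider spread in the vector control cells.

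CCN2, the related matricellular protein formerly called CTGF and the readout most often paired with CCN1, gave a different picture. Its single probe set read 9.03, 9.15 and 8.71 in CRB3-expressing cells, against 8.96, 9.12 and 8.91 in vector control cells, so that the groups overlapped. The log2 fold change was -0.033 with a 95% interval from -0.29 to 0.23 (limma adjusted p = 0.923), and this interval leaves out a change of 1.5-fold in either direction. Its sign rested on single arrays: without CRB3-expressing replicate 3 the log2 fold change was 0.095, and without vector control replicate 2 it was 0.028. The changes of CCN1 and CCN2 differed by 0.95 on the log2 scale. The CCN1 value minus the CCN2 value lay between 1.90 and 2.29 on the CRB3-expressing arrays and between 1.01 and 1.23 on the vector control arrays, without overlap (exact permutation test, two-sided, p = 0.1, the smallest possible with 3 against 3). This comparison, that of the 2 CCDC80 probe sets and that of TEAD1 with TEAD2 below were chosen after the values were seen, and all 3 exact permutation tests have p = 0.1 after Benjamini-Hochberg adjustment as well.

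AMOTL2, an angiomotin family protein that binds YAP at cell junctions and restrains it, was the intracellular target that rose. It read 10.85, 10.72 and 10.87 in CRB3-expressing cells, against 9.84, 9.90 and 9.88 in vector control cells. The lowest CRB3-expressing array stood 0.82 above the highest vector control array, and the log2 fold change was 0.94 (SE 0.066, limma adjusted p = 7.75e-05). ANKRD1, a nuclear ankyrin repeat protein first known from heart muscle, read 4.15, 4.37 and 4.64 in CRB3-expressing cells, against 3.98, 4.06 and 3.92 in vector control cells. All 3 CRB3-expressing values were above the vector control values by a narrow gap of 0.090. The log2 fold change of 0.40 (SE 0.11) did not pass the test (limma adjusted p = 0.111), and values this low are not shown to be above background and may understate a change.

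The members that encode membrane proteins behaved differently from each other. CRIM1, a transmembrane protein with cysteine-rich repeats that binds BMPs, read 10.56, 10.48 and 10.58 in CRB3-expressing cells, against 9.93, 9.79 and 9.95 in vector control cells. This was a log2 fold change of 0.65 (SE 0.069, limma adjusted p = 0.000903), not far above the fold threshold. Its other 2 probe sets had log2 fold changes of 0.63 (the dimmest, called) and 0.57 (limma adjusted p = 0.00881). The value of 0.57 is a 1.48-fold difference, just under the threshold. In all 3 probe sets the groups did not overlap. AXL, a receptor tyrosine kinase for GAS6, read 10.48, 10.48 and 10.45 in CRB3-expressing cells, against 10.34, 10.40 and 10.37 in vector control cells. The groups did not overlap, but the log2 fold change was 0.10 with a 95% interval from -0.030 to 0.23 (limma adjusted p = 0.443), which leaves out a 1.5-fold change. In its dimmer probe set the groups overlapped, with a log2 fold change of 0.051.

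**Figure D3:**
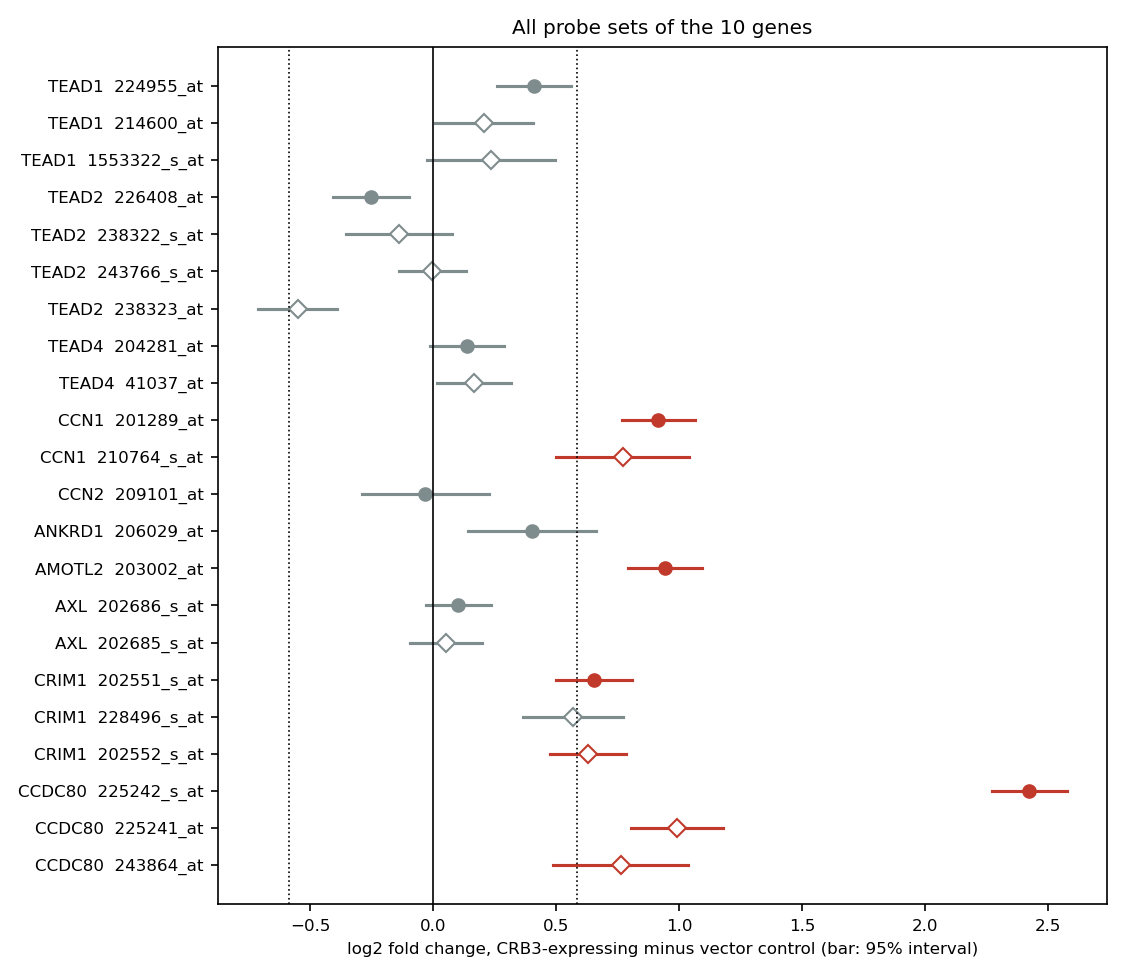
Log2 difference of CRB3-expressing cells over vector control cells (x axis) with its 95% interval from limma for each of the 22 probe sets (y axis); filled circles are the brightest probe set of a gene and open diamonds the others, red where called higher and grey where not called, with dotted lines at a 1.5-fold change. All 8 called probe sets are on the right and belong to CCN1, AMOTL2, CRIM1 and CCDC80, and the dimmest TEAD2 probe set at -0.55 is the farthest to the left.

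The TEAD genes themselves moved little and not in 1 direction. TEAD1, the founding member of the family, read 10.95, 10.96 and 10.98 in CRB3-expressing cells, against 10.50, 10.66 and 10.51 in vector control cells. The 3 CRB3-expressing arrays were nearly equal and all higher, with a log2 fold change of 0.41 (SE 0.066, limma adjusted p = 0.0101), a 1.33-fold difference under the fold threshold. The other 2 TEAD1 probe sets had log2 fold changes of 0.21 and 0.23, and their groups overlapped. TEAD4 read 9.77, 9.65 and 9.78 in CRB3-expressing cells, against 9.62, 9.54 and 9.63 in vector control cells. Both TEAD4 probe sets were slightly higher on every CRB3-expressing array, with log2 fold changes of 0.14 and 0.16 that did not pass the test (limma adjusted p = 0.356 and 0.263).

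TEAD2 leaned the other way. Its brightest probe set read 8.09, 8.10 and 8.16 in CRB3-expressing cells, against 8.26, 8.42 and 8.42 in vector control cells, a log2 fold change of -0.25 (SE 0.068) that did not pass the test (limma adjusted p = 0.0931). The dimmest of its 4 probe sets read 6.80, 6.76 and 6.78 in CRB3-expressing cells, against 7.35, 7.22 and 7.42 in vector control cells, without overlap. This was a log2 fold change of -0.55 (SE 0.070, limma adjusted p = 0.00263), which is 1.47-fold lower and just under the threshold. The remaining 2 TEAD2 probe sets had log2 fold changes of -0.14 and -0.0045 with overlapping groups, so the 4 probe sets do not agree in size. The changes of TEAD1 and TEAD2 differed by 0.66 on the log2 scale (TEAD1 minus TEAD2 values of 2.82 to 2.87 on the CRB3-expressing arrays and 2.09 to 2.24 on the vector control arrays, exact permutation test, two-sided, p = 0.1, the smallest possible). TEAD3, the remaining gene of the family and not a member here, had a log2 fold change of -0.019 (limma adjusted p = 0.954) in its single probe set, of positive sign without any one of 3 of the arrays (0.010 to 0.094), and is named after its value was seen.

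With adjusted p alone and no fold threshold, 5 of the 10 genes were higher and 0 lower, TEAD1 being the one added, against 3.37% higher and 1.77% lower of all genes. These calls changed with the fit: TEAD1 had a limma adjusted p = 0.0675 with an ordinary pooled variance, TEAD2 passed as lower with a mean-variance trend (0.0411), without probe sets of a mean under 6 (0.0327) and as the mean over its probe sets (0.0306), and ANKRD1 passed as higher without CRB3-expressing replicate 1 (0.0387). Without any test, the 2 groups of arrays did not overlap for 9 of the 10 genes, 8 with CRB3-expressing arrays higher and 1, TEAD2, with them lower. Over all genes this was so for 14.5% and 12.1%.

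Of 14 other measured genes of a widely used YAP and TAZ target signature, 3 were higher, 0 were lower and 11 were not called, with a median log2 fold change of 0.17. IGFBP3, a secreted binding protein of insulin-like growth factors, had a log2 fold change of 1.38 (SE 0.088, 7.28 ± 0.16 in CRB3-expressing cells, against 5.90 ± 0.051 in vector control cells, SD, n = 3), and its second probe set one of 1.90. LATS2, the kinase that phosphorylates YAP and is itself a YAP target, rose by 0.70 (SE 0.091) in its brightest probe set, while none of its other 3, at 0.18 to 0.46, was called. F3, which encodes tissue factor, rose by 0.59 (SE 0.071), right at the fold threshold. It was not called without CRB3-expressing replicate 1 (0.55), without vector control replicate 2 (0.54) or after the arrays were median-centred again (0.57). MYOF and FOXF2 had log2 fold changes of 0.49 and 0.42 with adjusted p-values of 0.00389 and 0.00891 from limma, under the fold threshold, and the 3 genes with negative values lay between -0.21 and -0.056. In a second list of 10 measured targets, 1 was higher, 0 were lower and 9 were not called, with a median of 0.16. The gene was THBS1, the matricellular thrombospondin, with log2 values of 12.10 ± 0.033 in CRB3-expressing cells, against 11.17 ± 0.12 in vector control cells (SD, n = 3, log2 fold change 0.93, SE 0.075, limma adjusted p = 0.000175), and 5 of its 7 probe sets were called. EDN1, the endothelin precursor, was under the fold threshold in its brightest probe set (0.52) and called in its other 2 (1.10 and 0.78). The growth targets MYC, BIRC5 and CCND1 had log2 fold changes of -0.20, -0.13 and 0.16, none of which passed the test.

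Transcripts of the coactivators themselves did not pass the test in either direction. YAP1 had log2 values of 11.20 ± 0.018 in CRB3-expressing cells, against 11.23 ± 0.061 in vector control cells (SD, n = 3), a log2 fold change of -0.028 with a 95% interval from -0.17 to 0.11, which leaves out a 1.5-fold change, and 0.0058 without vector control replicate 3. WWTR1 had a log2 fold change of -0.22 (SE 0.076, limma adjusted p = 0.190) for the brightest probe set, and the other 2 had -0.088 and -0.044. Of the 6 coactivators and other TEAD-binding cofactors, 1 was higher and 0 were lower: VGLL3, a vestigial-like protein that binds TEADs in place of YAP and TAZ, rose by 2.09 on the log2 scale (SE 0.105, 9.43 ± 0.13 in CRB3-expressing cells, against 7.34 ± 0.18 in vector control cells, SD, n = 3). Its dimmer probe set was called too, at 1.40. VGLL4 had 0.24 (limma adjusted p = 0.102), and VGLL1 and VGLL2 had mean log2 values of 5.48 and 5.96 in CRB3-expressing cells, against 5.51 and 5.97 in vector control cells.

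Of 12 genes of the Hippo kinase cassette and its upstream regulators, 2 were higher, 0 were lower and 10 were not called, with a median of -0.029. LATS2, counted in the signature list above, and AMOTL2, counted among the members, are not among these 12. STK3, which encodes the kinase MST2, rose by 0.69 on the log2 scale (SE 0.064), and WWC1, the scaffold KIBRA, by 0.68 (SE 0.075). As means over all their probe sets, STK3 and WWC1 had log2 fold changes of 0.53 and 0.30 and were under the fold threshold, as was LATS2 at 0.41. SAV1 and NF2, a scaffold of the kinases and the FERM protein merlin, had 0.43 and 0.28, under the fold threshold (limma adjusted p = 0.0324 and 0.0478). Without any 1 of the 6 arrays neither passed an adjusted p of 0.05 (limma adjusted p of 0.0501 to 0.101 for SAV1 and 0.0634 to 0.155 for NF2). Of the 12 genes, 5 had a positive log2 fold change and 7 a negative one. MOB1B and MAP4K4 had -0.24 and -0.19 and did not pass the test (limma adjusted p = 0.125 and 0.150). A dimmer MAP4K4 probe set had -0.45 (limma adjusted p = 0.0156), under the fold threshold. Called genes thus made up 40% of the members, 21.4%, 10% and 16.7% of the 2 target lists and the cofactor list, and 16.7% of the Hippo list. Over all genes, dim ones included, the share was 1.9%. No set test was run on lists whose results were partly known.

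**Figure D4:**
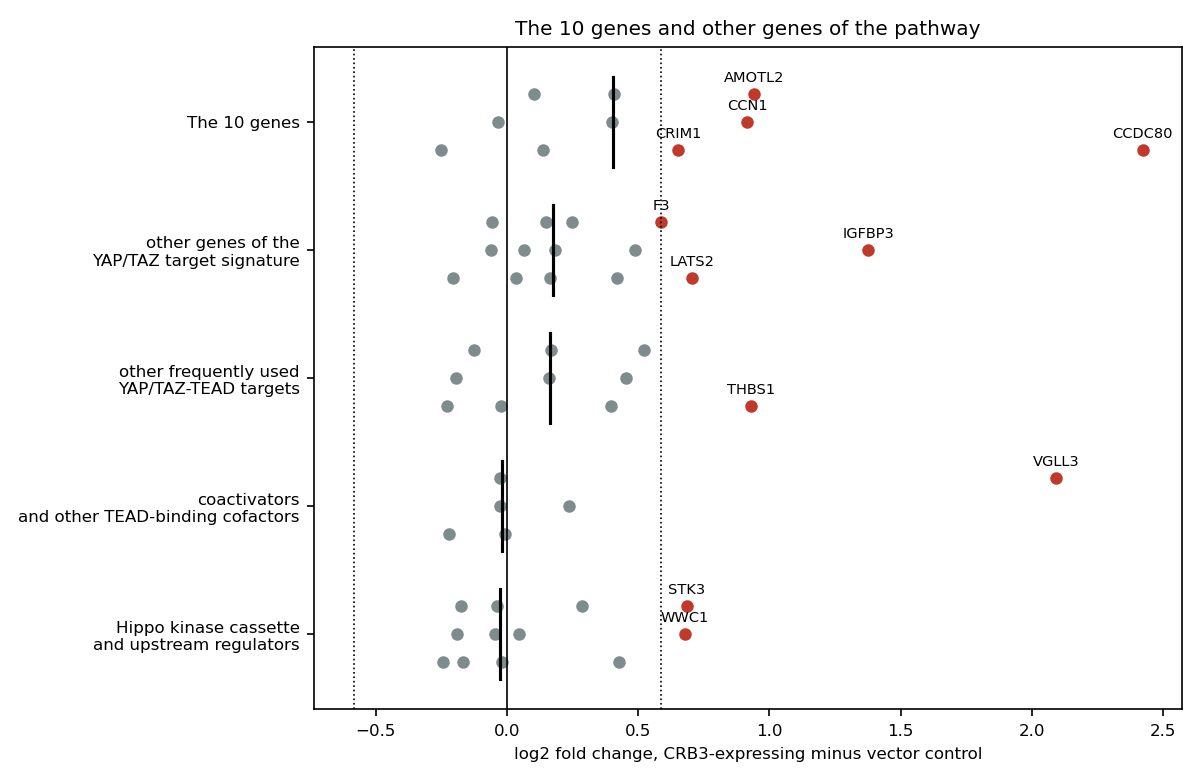
Log2 difference of CRB3-expressing cells over vector control cells (x axis) of the brightest probe set of each gene, for the 10 members and 4 other lists of the pathway (y axis); genes are points, red and named where called higher and grey where not called, a black bar gives each median, and dotted lines mark a 1.5-fold change. The medians are 0.40, 0.17, 0.16, -0.018 and -0.029 down the page, and no gene lies left of the lower 1.5-fold line.

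Outside these lists, the genes whose pattern over the 6 arrays was most like that of CCDC80 were CD24, SPINK6 and MFAP5. Each probe set was taken as its deviation from its own mean, and the root mean square difference from CCDC80 was 0.055, 0.083 and 0.10 on the log2 scale. CD24, the most alike, had log2 values of 13.82, 13.83 and 13.84 in CRB3-expressing cells, against 11.36, 11.45 and 11.34 in vector control cells. SPINK6 had 7.84, 7.76 and 7.59 in CRB3-expressing cells, against 5.05, 5.25 and 5.25 in vector control cells. MFAP5, a protein of extracellular microfibrils and the least alike of these, had 8.37, 8.45 and 8.37 in CRB3-expressing cells, against 6.14, 6.18 and 6.06 in vector control cells. With 2 groups of 3 arrays, this likeness is a description of these 6 values only.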

How the data were processed

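Total RNA of 3 CRB3-expressing and 3 vector control samples of MCF-10A cells was hybridized to Affymetrix Human Genome U133 Plus arrays. Background correction, normalization and summary by Robust Multichip Average were done by the authors, whose deposited log2 values (1 for each probe set on each array) were not changed further. Their tool versions are not given in the sources used here. No detection calls accompany the values. The array medians lay between 5.84 and 5.88.

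CRB3-expressing arrays were set against vector control arrays by lmFit and eBayes of limma 3.58.1 (R 4.3.3). The fit held 54613 probe sets, the 62 Affymetrix controls being removed, and p-values were adjusted over the whole fit by Benjamini-Hochberg. Gene names came from the platform annotation, checked through gene identifiers in a RefSeq table (0 symbols changed). Of the probe sets, 41091 have 1 symbol, 1801 several and 11721 none, and those with several or none were not named. NUAK2 was not analysed here. Gene levels are those of the brightest probe set. The members and lists were chosen with earlier results of these data known. The text names all members, the called genes of each other list, and of the pathway lists up to 4 others, and the genes most like the called member with the largest change. EDN1, MYOF, FOXF2, MYC, BIRC5, CCND1, VGLL4, SAV1, NF2, MOB1B and MAP4K4 are named after their values were seen. Promoter sequences came from RefSeq (GRCh38.p14) and were read for the 250 bases before each start site in Python 3.11.15. The steps were tested on simulated data. Alternatives were the replicate number as a block, other variance models, renormalization, removal of dim probe sets or of single arrays, array weights, other fold thresholds and other choices of probe set.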

Additional observations from a re-analysis of the deposited data

How the results depend on the processing

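The calls of CCDC80, AMOTL2, CCN1 and CRIM1 held without each array in turn (4 members higher and 0 lower each time), after median-centring or quantile normalization, with array weights, with a filter on dim probe sets and with an ordinary pooled variance, and they depended on the fold threshold. With no fold threshold 5 members were higher, over all probe sets 1226 were higher and 759 lower, and in the signature, second target and Hippo lists 5, 4 and 4 were higher. With a 2-fold threshold 1 member was higher (CCDC80), 196 probe sets were higher and 44 lower, and the lists had 1, 0 and 0. With treat against 1.5-fold it was again 1 member (CCDC80), with 170 and 32 probe sets, and 1, 0 and 0 in the lists. With an ordinary pooled variance 297 probe sets were higher and 82 lower, with 1 higher in the signature list, where LATS2 and F3 were lost, and 1 in the Hippo list, where WWC1 was. As means over probe sets, 2 genes of the second target list and 0 of the Hippo list were higher. With any probe set of a gene, 2 of the second target list were higher, and with probe sets shared between transcripts left out 1 of the Hippo list was, while CCDC80 had 0.99 and CRIM1 and AXL had no probe set left. ANKRD1 was not tested once probe sets with means under 6 were removed. Signs changed for 3 genes that were never called, all on leaving out 1 array: CCN2 (-0.13 to 0.095 over the 6 arrays left out, 0.095 without CRB3-expressing replicate 3, 0.028 without vector control replicate 2), YAP1 (-0.054 to 0.0058, the highest without vector control replicate 3) and TEAD3 (-0.085 to 0.094, with 0.012 and 0.010 without CRB3-expressing replicates 1 and 3, 0.094 without vector control replicate 3). The causes were not tested.

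Without each array in turn, between 2 and 3 genes of the signature list, 1 of the second target list, 1 cofactor and 2 of the Hippo list were higher, with 490 to 526 probe sets higher and 180 to 221 lower. With the replicate number as a block (replicate block), 4 members were higher and 0 lower, with 512 probe sets higher and 198 lower, and no call of the lists changed. The deviations of same-numbered arrays from their group means had correlations of -0.085, 0.064 and 0.029, so the numbers were not taken as pairs. No probe set has a detection call, which limits what the values of dim ones, such as the single probe set of ANKRD1, show.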
